A study of Mus musculus with 6 samples.

Results

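The mitochondrial ribosomal protein genes are the nuclear genes for the proteins of the ribosome inside mitochondria. They were taken as the transcript clusters with a single platform gene symbol that starts with Mrpl or Mrps and a digit, without pseudogenes. The rule used names only and gave 74 genes, 28 Mrps and 46 Mrpl, each with 1 such cluster, of 65956 clusters on the array. Mrps18b has a further cluster that it shares with Gm16279, which was not used. All 74 lay above the filter on low values and were tested. Mrpl30, Mrpl53 and Mrps6 share their cluster with another gene (Gm6238, Ccdc142 and Slc5a3) and were not counted, and Mrpl58 is on the platform under another symbol and is given with the pathway genes.

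Kidneys came from 6 female mice of a polycystic kidney disease model, each carrying the transgene named Pkd1 miR and killed at postnatal day 63. From day 35 to day 63 the control group (3 mice) was injected with saline and the other group (3 mice) with metformin, a biguanide drug that inhibits respiratory complex I, at 150 mg/kg/day into the peritoneum. Control and treated mice carried the same transgene, so no kidney without it enters the comparison. The sources used here do not give the promoter that drives it. Each array holds the whole-kidney RNA of 1 mouse, per the labels, and all values are log2 expression as deposited. The array medians lay between 4.67 and 4.86. Upper quartiles separated the groups, with none over 7.12 after saline and none under 7.21 after metformin. The deposited distributions thus differed by treatment, for a reason that was not tested, and the counts of calls below depend on the scaling. Of 16 proximal tubule markers, which mark the labelled tissue, 15 lay above the filter on low values. In whole tissue, fewer cells of a type and less RNA per cell cannot be told apart.

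Mitochondrial ribosomes translate the few proteins that mitochondrial DNA encodes, which are core subunits of the respiratory chain and of ATP synthase. Their RNA comes from mitochondrial DNA, but every protein of both subunits is made from nuclear genes in the cytosol and imported. Part of the proteins have counterparts in bacterial ribosomes and part are found in mitochondria only. The kidney, above all its proximal tubule, is rich in mitochondria. The comparison asks which transcripts of this machinery differ in the kidneys of mice given metformin.

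In the metformin kidneys 13 of 74 genes fell and none rose (limma, adjusted p under 0.05 over all genes tested), where 9.08% of the 22085 genes tested were called lower and 6.71% higher. The 13 make up 17.6% of the members. Among protein-coding genes in the members' range of mean values 13.8% were called lower, so the members' share is not far above that of comparable genes. At an unadjusted p under 0.05 there were 28 members, beside 32.1% of all genes tested. After quantile normalization 29 members were lower and none higher, beside 3806 of all 22085 genes called lower in that fit (2006 as deposited). Of all calls 79.3% were then lower, in place of 57.5%. The median change over the members was -0.21 log2 units (metformin minus saline), with quartiles of -0.39 and -0.01, beside a median of 0.02 over all genes tested and -0.04 over the protein-coding genes of the same range. Changes ran from -1.12 for Mrpl50 to 0.25 for Mrpl24, and 56 members lay below 0 and 18 above. All 3 metformin arrays lay below all 3 saline arrays in 30 of the 74 members (19.4% of all genes tested) and above them in 4 (17.8% of all genes tested). Among the 11595 protein-coding genes of the same range, 3240 lay below and 1890 above in this way.

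**Figure D1:**
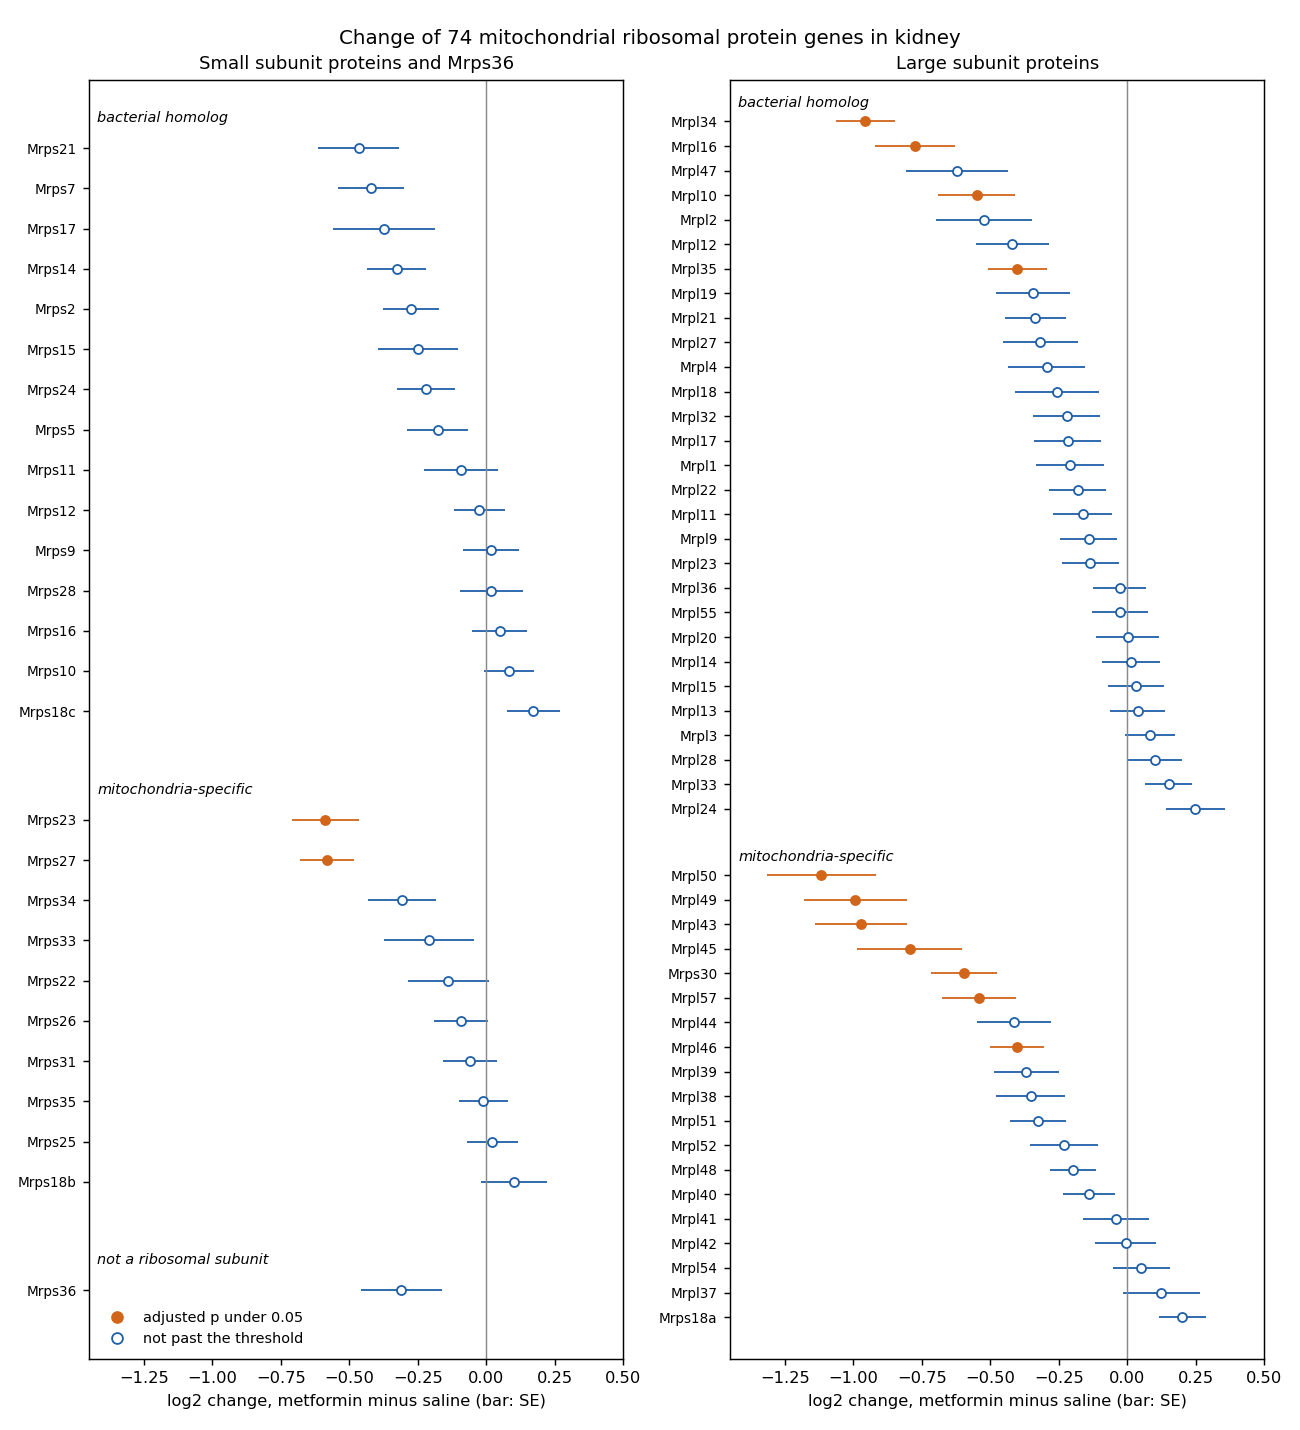
Log2 change with its SE from the limma fit (3 saline and 3 metformin arrays) for the 74 genes, small subunit proteins and Mrps36 on the left and large subunit proteins on the right, each split by whether the protein has a bacterial counterpart; filled points passed the adjusted threshold. The 13 filled points all lie below 0, with 11 among the 48 large subunit proteins and 2 among the 25 small subunit proteins.

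The large subunit joins amino acids to the growing chain. Of its 48 proteins 11 fell, with a median of -0.23 over the 48. Among the 19 classed as mitochondria-specific 7 fell (36.8%, median -0.35), and among the 29 with bacterial counterparts 4 fell (13.8%, median -0.21). Over all genes tested 9.08% were called lower. Among protein-coding genes in the members' range of mean values it was 13.8%, the same share as in the class with bacterial counterparts. The difference between these classes was not tested.

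Mrpl50, a mitochondria-specific protein of the large subunit, had the most negative change of the family. Its saline arrays 1 to 3 read 13.05, 12.77 and 13.12, and its metformin arrays 1 to 3 read 11.42, 12.05 and 12.12. Metformin array 1 was the lowest. The groups did not overlap, but the gap between them was smaller than the range of the metformin arrays (0.70). It fell from 12.98 ± 0.18 to 11.86 ± 0.39 (SD, n = 3 per group), 2.17-fold (limma adjusted p = 0.0149). Mrpl49 read 10.06, 9.30 and 9.57 with saline and 8.55, 8.76 and 8.64 with metformin, a fall of 1.99-fold (change -0.99 ± 0.19, SE; limma adjusted p = 0.0175). Saline array 1 stood above the other saline arrays in this gene, and the groups did not overlap. Mrpl43 read 8.58, 8.27 and 8.03 against 7.34, 7.51 and 7.10, a fall of 1.96-fold (change -0.97 ± 0.17, SE; limma adjusted p = 0.0138).

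Mrpl34, the counterpart of bacterial ribosomal protein L34, had the smallest saline SD among the genes that fell. It read 7.83, 7.75 and 7.86 in the saline mice and 6.99, 6.69 and 6.89 in the metformin mice. It fell from 7.81 ± 0.06 to 6.85 ± 0.15 (SD, n = 3 per group), 1.94-fold, with the smallest adjusted p of the family (limma adjusted p = 0.00735). The saline arrays of Mrpl34 differed far less among themselves than the groups did. Mrpl45, a mitochondria-specific protein that tethers the ribosome to the inner membrane, read 10.35, 9.60 and 9.75 against 9.01, 9.21 and 9.09 (change -0.80 ± 0.19, SE; limma adjusted p = 0.0336). Mrpl16, which lies next to the site where peptide bonds form, read 9.96, 9.69 and 10.15 against 8.95, 9.27 and 9.26 (change -0.78 ± 0.15, SE; limma adjusted p = 0.0174). In both genes the highest metformin array stayed below the lowest saline array.

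Mrps30 is named after the small subunit but sits in the large one. It read 9.21, 8.87 and 8.90 with saline and 8.38, 8.50 and 8.31 with metformin (change -0.60 ± 0.12, SE; limma adjusted p = 0.0208). Mrpl57, one of the smallest proteins of the large subunit, read 7.77, 7.75 and 7.42 against 7.24, 7.15 and 6.93 (change -0.54 ± 0.13, SE; limma adjusted p = 0.0367). Here saline array 3 and metformin array 3 were the lowest of their groups. Mrpl10, which anchors the flexible stalk that recruits translation factors, read 11.17, 10.80 and 10.69 against 10.24, 10.43 and 10.35 (change -0.55 ± 0.14, SE; limma adjusted p = 0.0388, and 0.0508 with the replicate number of the labels as a block). Mrpl12, the stalk protein that Mrpl10 carries, had a change of -0.42 ± 0.13 (SE) that missed the threshold (limma adjusted p = 0.0715), with metformin array 1 at 7.62 below 8.09 and 7.95. The stalk genes thus both read lower on every metformin array, and 1 of the pair passed the test.

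Mrpl46 and Mrpl35 were the smallest of the calls. Mrpl46 read 7.44, 7.22 and 7.39 against 6.94, 7.01 and 6.90, a fall of 1.32-fold (limma adjusted p = 0.0360). Mrpl35 read 8.70, 8.45 and 8.47 against 8.05, 8.21 and 8.15, also 1.32-fold (limma adjusted p = 0.0441, and 0.0614 with the replicate block). Their groups were separated by less than the range of the saline arrays. Of the large subunit genes just outside the threshold Mrpl47 came closest (-0.62 ± 0.18, SE; limma adjusted p = 0.0602, and called with the replicate block). Mrpl51 (-0.33), Mrpl12 (-0.42), Mrpl39 (-0.37), Mrpl44 (-0.41), Mrpl21 (-0.34) and Mrpl2 (-0.52) followed, with limma adjusted p from 0.0674 to 0.0859, and of these Mrpl2 was called with the block.

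The small subunit reads the messenger RNA. Of its 25 proteins 2 fell, with a median of -0.14 over the 25 and no call among the 15 with bacterial counterparts. The 2 are 8% of the 25, beside 9.08% of all genes tested called lower. Both that fell are mitochondria-specific. Mrps27, a pentatricopeptide repeat protein, read 8.98, 8.77 and 8.77 with saline and 8.20, 8.28 and 8.30 with metformin, and fell by 0.58 on the log2 scale from 8.84 ± 0.12 to 8.26 ± 0.05 (SD, n = 3 per group; limma adjusted p = 0.0135). Mrps23 read 10.52, 10.15 and 10.42 against 9.68, 9.89 and 9.76 (change -0.59 ± 0.12, SE; limma adjusted p = 0.0230). Mrps21 (-0.47 ± 0.15, SE; limma adjusted p = 0.0711) and Mrps7 (-0.42 ± 0.12, SE; limma adjusted p = 0.0552) missed the threshold without overlap of the groups. The core decoding protein Mrps12 had a change of -0.03 ± 0.09 (SE). Whether the small and the large subunit differ in their change was not tested.

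**Figure D2:**
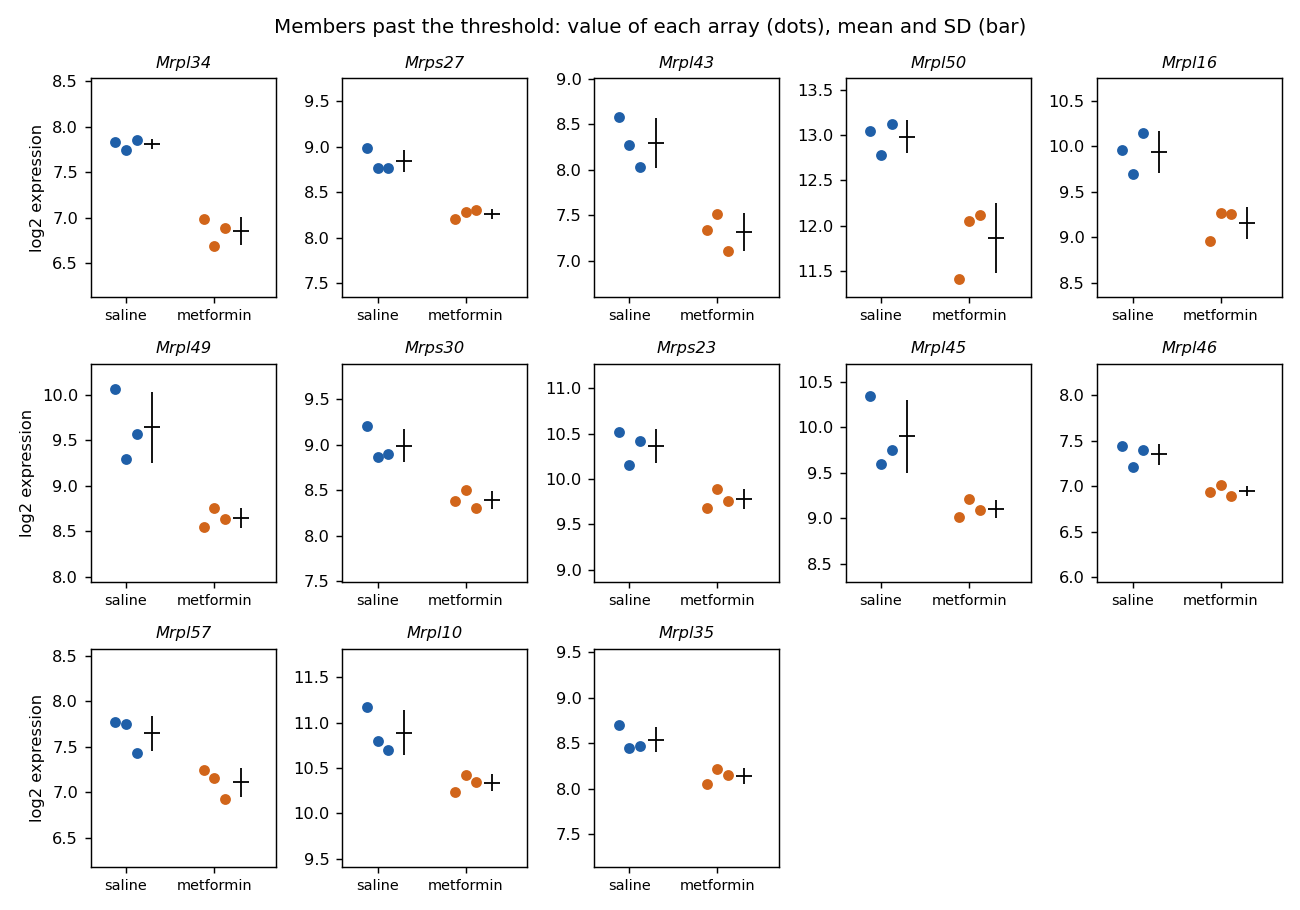
Log2 expression of the 13 genes that fell, with 1 dot per array, replicates 1 to 3 from left to right, and the mean and SD of each group beside them; all panels have the same span in log2 units, around their own centres. In each panel the 3 metformin dots lie below the 3 saline dots, most clearly in Mrpl34, where the saline dots lie between 7.75 and 7.86.

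Upward changes were small and none passed the test. Mrpl24, a protein at the exit of the peptide tunnel, had the most positive change, with 10.84, 10.97 and 11.08 on the saline arrays and 11.08, 11.30 and 11.25 on the metformin arrays (0.25 ± 0.11, SE; limma adjusted p = 0.160). Saline array 3 and metformin array 1 of this gene were the closest, at 11.08 each. The next were Mrps18a (0.20 ± 0.09, SE), Mrps18c (0.17 ± 0.10, SE), Mrpl33 (0.15 ± 0.09, SE) and Mrpl37 (0.12 ± 0.14, SE), with limma adjusted p from 0.157 to 0.594. Mrps18a, Mrps18b and Mrps18c are named after bacterial protein S18, and all 3 lay above 0, Mrps18b at 0.10 ± 0.12 (SE). In the classes used here only Mrps18c counts as a bacterial counterpart, and Mrps18a and Mrps18b count as mitochondria-specific. With quantile normalization, which moved the median of all genes from 0.02 to -0.10, Mrps18a and Mrpl33 turned to -0.028 and -0.031, and Mrpl24, Mrpl37 and Mrps18c were the 3 members left above 0. Mrps36, which carries a name of the family but belongs to the 2-oxoglutarate dehydrogenase complex, had a change of -0.31 ± 0.15 (SE; limma adjusted p = 0.199).

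The windows around the starts of genes that moved, and of 2 that did not, show what the promoters of the family share and where they differ. RefSeq's promoter table (GRCm38.p6) held 65 of the 74, and not Mrpl4, Mrpl13, Mrpl15, Mrpl19, Mrpl38, Mrpl54, Mrps28, Mrps34 and Mrps35. Its windows run from 250 bases before to 50 after each start, and 30 after the start are shown. Capitals mark matches, on either strand, to the letters CCGGAAG of the ETS family (to which the mitochondrial regulator GABPA belongs), AAGATGGC of YY1, and to the core of the ZNF143 site, added after the windows were seen. The printed matches do not overlap one another. Mrpl34, Mrps27 and Mrpl43 had the smallest adjusted p values of the family, Mrpl50 had the most negative change, Mrpl24 had the most positive one, and Mrps11 shares its start region with Mrpl46.
Mrpl34 (chr8:71464676-71464955, plus strand): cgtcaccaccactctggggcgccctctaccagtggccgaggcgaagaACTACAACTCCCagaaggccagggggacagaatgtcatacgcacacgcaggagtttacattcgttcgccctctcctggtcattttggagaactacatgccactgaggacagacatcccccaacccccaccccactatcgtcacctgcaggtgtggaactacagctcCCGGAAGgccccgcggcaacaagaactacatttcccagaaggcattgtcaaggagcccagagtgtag
Mrps27 (chr13:99344536-99344815, plus strand): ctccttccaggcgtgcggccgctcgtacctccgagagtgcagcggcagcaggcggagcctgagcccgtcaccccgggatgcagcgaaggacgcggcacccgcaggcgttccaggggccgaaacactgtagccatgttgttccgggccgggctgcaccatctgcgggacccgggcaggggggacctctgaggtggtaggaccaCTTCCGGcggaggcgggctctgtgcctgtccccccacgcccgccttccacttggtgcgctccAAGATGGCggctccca
Mrpl43 (chr19:45006413-45006692, minus strand): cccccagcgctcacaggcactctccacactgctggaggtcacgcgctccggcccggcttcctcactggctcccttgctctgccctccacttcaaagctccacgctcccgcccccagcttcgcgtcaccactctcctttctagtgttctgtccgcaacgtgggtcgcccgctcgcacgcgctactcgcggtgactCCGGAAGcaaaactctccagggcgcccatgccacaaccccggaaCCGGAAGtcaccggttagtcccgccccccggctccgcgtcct
Mrpl50 (chr4:49521054-49521333, minus strand): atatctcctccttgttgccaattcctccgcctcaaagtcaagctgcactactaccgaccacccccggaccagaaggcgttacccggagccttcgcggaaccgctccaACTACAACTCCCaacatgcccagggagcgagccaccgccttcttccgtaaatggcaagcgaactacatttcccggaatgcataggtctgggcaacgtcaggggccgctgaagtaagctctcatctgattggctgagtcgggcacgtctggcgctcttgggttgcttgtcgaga
Mrpl24 (chr3:87919294-87919573, plus strand): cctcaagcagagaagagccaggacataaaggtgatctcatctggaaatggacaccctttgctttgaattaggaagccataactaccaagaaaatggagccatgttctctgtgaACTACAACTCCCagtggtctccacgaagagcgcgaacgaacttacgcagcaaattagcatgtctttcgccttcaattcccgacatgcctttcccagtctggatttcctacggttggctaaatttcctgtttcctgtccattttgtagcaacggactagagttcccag
Mrps11 (chr7:78782881-78783160, plus strand): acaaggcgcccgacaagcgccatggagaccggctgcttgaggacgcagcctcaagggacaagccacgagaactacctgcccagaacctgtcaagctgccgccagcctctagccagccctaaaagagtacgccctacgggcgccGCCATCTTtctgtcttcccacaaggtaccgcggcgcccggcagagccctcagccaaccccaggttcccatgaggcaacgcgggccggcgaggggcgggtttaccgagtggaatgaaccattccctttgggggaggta
Counted from the start, the ETS letters begin at position -37 in Mrpl34, at -48 in Mrps27, and at -56 and -12 in Mrpl43. The YY1 letters begin at 15 in Mrps27 and at -107 in Mrps11. The ZNF143 letters begin at -203 in Mrpl34, -143 in Mrpl50 and -137 in Mrpl24, and they are the only capitals in the windows of Mrpl50 and Mrpl24.

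Over the 65 windows 36.9% held the ETS letters, beside 12.9% of the 17491 protein-coding genes of the table. The YY1 letters were in 18.5% of members and 3.57% of protein-coding genes, and the core site of NRF1, a factor that drives many nuclear genes of mitochondria, in 18.5% and 7.17%. At least 1 of these 3 motifs lay in 40 of 65 windows (61.5%, beside 21.0% of protein-coding genes). The family thus shares these letters more often than protein-coding genes at large, with a median of 21 CpG per window against 15. The letters were present and absent in both the genes that fell and the others. Of the 13 that fell 5 held ETS letters, 3 YY1 and 2 NRF1, and 4 held none of the 6 motifs, against 19, 9 and 10 of the 52 others for ETS, YY1 and NRF1. The median change was -0.21 with ETS letters and -0.22 without them, -0.16 and -0.22 for YY1, and -0.30 and -0.21 for NRF1. The E-box CACGTG was in 7.69% of members and 8.91% of protein-coding genes, the ERR letters CAAGGTCA in 3.08% and 1.56%, and the CRE letters TGACGTCA in 3.08% (Mrpl49 and Mrpl16) and 2.54%. A match is a description of these letters, not a bound site.

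Some of these genes start head to head with a neighbour. Of the 65 members in the RefSeq table, 25 had a gene on the opposite strand whose start lay upstream within 1000 bases, and in 22 of these pairs the partner was tested. How often other genes have such a neighbour was not counted, so this is not shown to be a trait of the family. Mrpl46 and Mrps11 are partners of each other, with starts 42 bases apart, and so count as a pair each. Mrpl46 fell by 0.40 on the log2 scale, while Mrps11 had a change of -0.09 ± 0.13 (SE; limma adjusted p = 0.685). In 6 pairs the member fell, and in none of the 6 did the partner pass the test in either direction. Over all genes tested 15.8% passed in either direction, and 6 and 16 pairs are too few to set apart from that share. Mrpl43 fell by 0.97 and its partner Twnk, the mitochondrial DNA helicase 116 bases away, had a change of -0.15 (limma adjusted p = 0.415). Mrpl49 fell by 0.99 and Fau, which encodes a protein of the cytosolic ribosome, had a change of -0.10 (limma adjusted p = 0.731). Mrpl50 fell by 1.12 and the zinc finger gene Zfp189 had a change of -0.10 (limma adjusted p = 0.673). The remaining partners were Ptcd2 of Mrps27 (-0.30) and Ska3 of Mrpl57 (0.27), which did not pass either. Among the 16 pairs whose member did not pass, the partners Psma2 and Mrpl46 fell, and Ncapd2, a condensin subunit, and Gga3 rose, by 0.55 and 0.36, opposite Mrpl51 (-0.33) and Mrps7 (-0.42). Whether a member and its partner differ in their change was not tested.

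**Figure D3:**
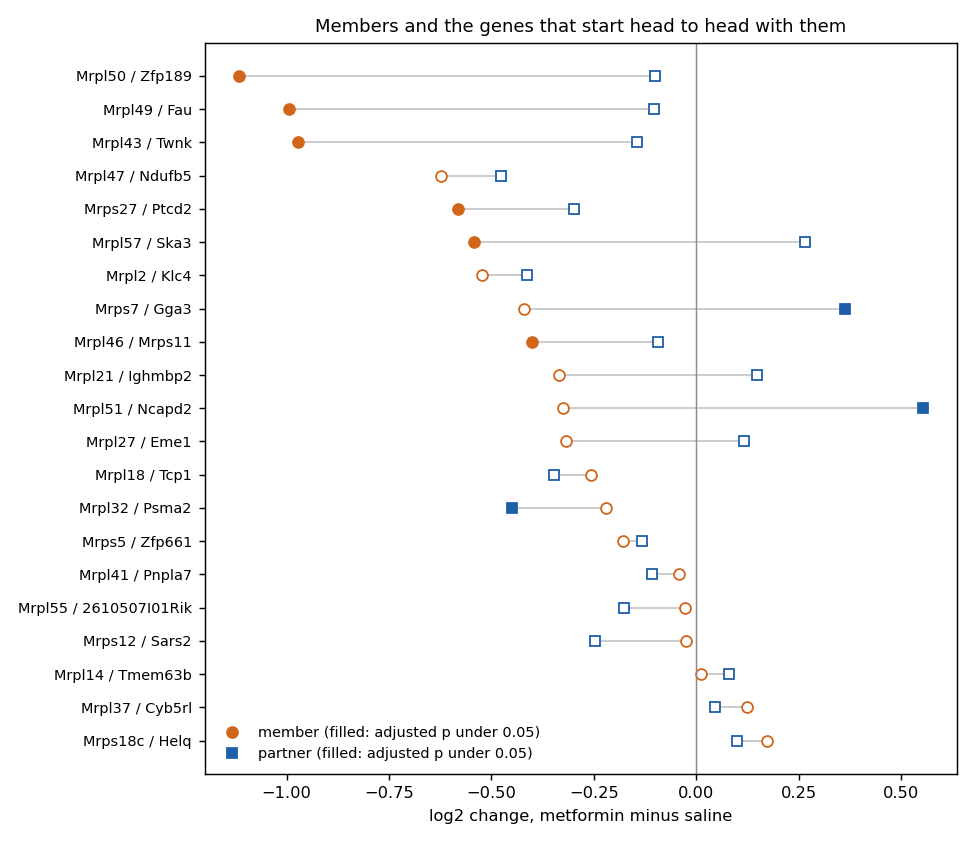
Log2 change (metformin minus saline) of each member, as a circle, and of the gene that starts head to head with it, as a square, 1 row per pair and the pair of Mrpl46 and Mrps11 drawn once; filled symbols passed the adjusted threshold. The filled circles at the top, Mrpl50, Mrpl49 and Mrpl43, lie near -1 while their partners lie between -0.15 and -0.10.

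Other genes of mitochondrial gene expression were followed in lists of assembly factors, translation factors, aminoacyl-tRNA synthetases and others. Of 81 tested, 17 fell and 1 rose, where 9.08% of all genes tested were called lower and 6.71% higher. Of protein-coding genes 11.8% were called lower, and 13.8% of those in the members' range of mean values. The list of mitoribosomal proteins with other symbols had 1 of 5 lower (median -0.25), Mrpl58, a peptidyl-tRNA hydrolase built into the large subunit that frees stalled chains (-0.70 ± 0.14, SE; limma adjusted p = 0.0182). Dap3 and Ptcd3 of the small subunit had changes of -0.25 and -0.27 and did not pass (limma adjusted p = 0.141 and 0.165).

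Of 26 assembly and rRNA modification genes 6 fell (23.1%, median -0.23), beside 9.08% of all genes tested and 11.8% of protein-coding genes. Eral1, a GTPase that chaperones the small subunit's rRNA, read 8.67, 8.54 and 8.42 with saline and 7.36, 7.55 and 7.51 with metformin (change -1.07 ± 0.11, SE; limma adjusted p = 0.00707). The groups of Eral1 lay further apart than the range within either group. Tfb1m, which methylates the same rRNA, fell by 0.71 on the log2 scale and Rbfa, which binds it during maturation, by 0.55. On the large subunit's side the GTPase Gtpbp10 fell by 0.78, Fastkd2 by 0.60 and Ngrn by 0.49. The limma adjusted p of these 5 ran from 0.0112 for Fastkd2 to 0.0373 for Ngrn.

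Of 15 translation factors and partners 5 fell (33.3%, median -0.37), beside 9.08% of all genes tested and 11.8% of protein-coding genes. The COX1 translation activator Taco1 read 9.06, 8.94 and 9.19 against 8.11, 8.29 and 8.26 (change -0.84 ± 0.11, SE; limma adjusted p = 0.00735). The elongation factors Gfm1 and Tufm fell by 0.66 and 0.48, the recycling factor Mrrf by 0.37, and the insertase Oxa1l, which places new chains in the inner membrane, by 0.61. Of 21 aminoacyl-tRNA synthetases and amidotransferase subunits 4 fell (19.0%, median -0.24). Gatc and Gatb, partners in the enzyme that makes glutaminyl-tRNA in mitochondria, fell by 1.16 ± 0.17 and 0.95 ± 0.15 (SE; limma adjusted p = 0.00973 and 0.0110), while the catalytic partner Qrsl1 had a change of 0.06 ± 0.09 (SE; limma adjusted p = 0.672). The synthetases Iars2 and Nars2 fell by 0.59 and 0.49. Among 8 genes that copy and transcribe mitochondrial DNA, 4 lay below 0 and 4 above. The transcription factor Tfb2m fell by 0.92 (limma adjusted p = 0.0149), and Tfam had a change of -0.54 (limma adjusted p = 0.0506).

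Of the RNAs that mitochondrial DNA itself encodes 6 were tested, and 1, ND6, rose by 0.83 (limma adjusted p = 0.0360). The others, among them the small subunit rRNA mt-Rnr1 (-0.08) and the messengers COX1 (-0.09), COX2 (0.11), ND2 and ND3 (0.03 each), did not pass. The readings of mt-Rnr1, from 19.76 to 19.89, lie at the top of the array's scale, and those of ND3, from 19.43 to 19.62, lie near it. The highest values of the arrays were 19.78 to 19.93, so a change could be hidden in these RNAs.

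Compared with like families, 8 of 37 complex I subunits fell (median -0.36) and 1 of 42 cytosolic ribosomal protein genes (median 0.08), with 1 of the latter higher. Over all genes tested 9.08% were called lower and 6.71% higher, and 13.8% of protein-coding genes in the members' range of mean values were called lower. The cytosolic list was taken by symbol alone, and whether each gene encodes a protein of the ribosome was not checked. In it Rpl7l1, named as an L7-like gene, fell by 0.65 and Rps4x rose by 0.85. The differences between the families were not tested, and the lists were chosen with earlier results known.

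**Figure D4:**
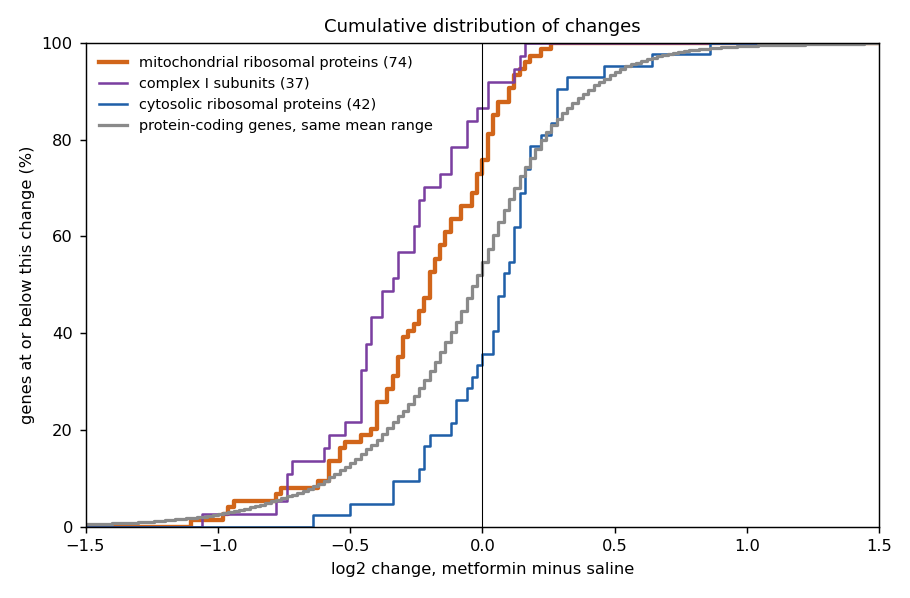
Cumulative share of genes (percent) at or below each log2 change for the 74 mitochondrial ribosomal protein genes, 37 complex I subunits, 42 cytosolic ribosomal protein genes and the 11595 protein-coding genes in the members' range of mean values. The line of the members lies left of the protein-coding line through the middle, with medians of -0.21 and -0.04, and meets it in the left tail.

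Per array, the mean deviation of the 74 members from each gene's own mean was 0.22, 0.04 and 0.10 in the saline mice, numbered 1 to 3, and -0.18, -0.04 and -0.14 in the metformin mice. Saline array 1 held the highest value of 41 members, and metformin array 1 the lowest value of 32. Saline 2 and metformin 2 were the closest arrays of the groups. Without saline array 1 the count of members that fell was 3, without metformin array 1 it was 4, and without metformin array 2 or 3 it was 6 each. It was 9 without saline array 3 and 14 without saline array 2. The calls over all genes moved as well: the 2006 called lower became 490 without saline array 1, 708 without metformin array 1, 782 and 1074 without metformin arrays 2 and 3, 1187 without saline array 3 and 2136 without saline array 2. Mrpl34 and Mrpl43 kept their call in each of the 6 fits, and Mrps27 and Mrpl50 lost it without saline array 1 only (limma adjusted p = 0.0510 and 0.0645). Mrpl16 and Mrpl49 kept it in 4 fits and Mrps30 and Mrpl10 in 2. Mrps23, Mrpl45, Mrpl46, Mrpl57 and Mrpl35 kept it in 1 fit only. Of the 17 pathway genes that fell Eral1, Taco1, Gatc, Gatb, Fastkd2 and Tfb1m kept their call in each fit. Gfm1 and Ngrn kept theirs in 1 fit and Mrrf in none. ND6 kept its call in 1 of the 6 fits.

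Some lists of cell type markers moved with the groups and others did not. The counts of calls below stand beside 9.08% of all genes tested called lower and 6.71% called higher. The same mean deviation over 15 proximal tubule markers ranged from 0.18 to 0.59 with saline and from -0.81 to -0.01 with metformin, with 5 of 15 markers lower and none higher. Over 10 markers of the distal nephron and collecting duct it ranged from 0.10 to 0.27 and from -0.30 to -0.05 (3 lower). Over 9 proliferation genes it lay between -0.65 and -0.13 with saline and between 0.19 and 0.55 with metformin (6 higher), and over 10 macrophage markers between -1.02 and 0.36 and between 0.07 and 0.64 (1 higher), so that the macrophage values of the groups overlapped. No gene was called among 4 podocyte, 9 lymphocyte, 3 adrenal and 5 skeletal muscle markers, with medians of -0.03, 0.09, 0.14 and -0.05. Over 9 adipocyte markers it lay between -0.40 and 1.68 with saline and between -0.78 and -0.70 with metformin (1 lower; 9 of the 12 listed passed the filter). The part of these markers in the members' changes was tested only through the covariate fits given next. The distal nephron value put the 6 arrays in the same order as the members' value did (0.27, 0.10 and 0.13 with saline, -0.30, -0.05 and -0.16 with metformin). The proximal tubule value was 0.36, 0.18 and 0.59 with saline and -0.81, -0.31 and -0.01 with metformin, and the adipocyte value 0.91, 1.68 and -0.40 and then -0.78, -0.72 and -0.70. With the adipocyte value as a covariate 2 members fell, Mrpl34 and Mrpl16 (limma adjusted p = 0.0341 and 0.0381), beside 586 of all 22085 genes called lower, and the median over the members was -0.27. With the proximal tubule value as a covariate, an alternative added after seeing the data, no member and 1 of the 22085 genes passed, and the median over the members was -0.12. Both values follow the group closely (correlation with the group -0.77 and -0.82), so these fits cannot tell the cell type markers and metformin apart.

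**Figure D5:**
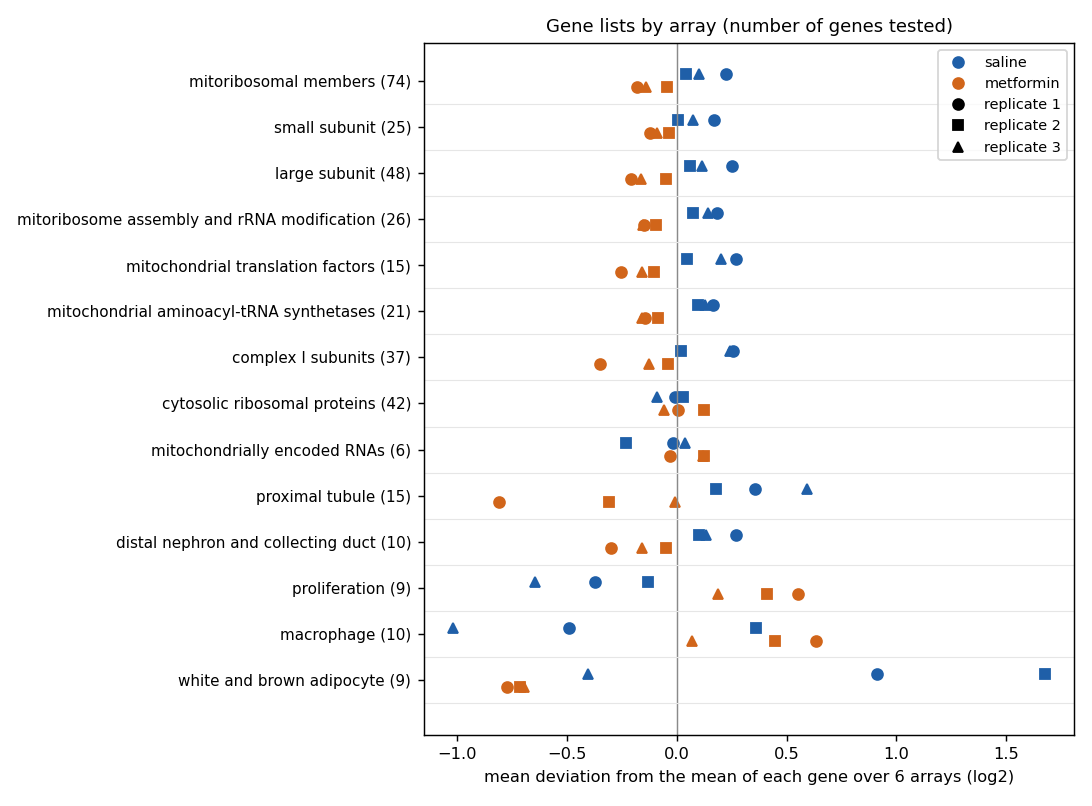
Mean deviation (log2) of the genes of each list from their own means over the 6 arrays, 1 symbol per array, with the replicate number as the shape and the group as the colour. The mitoribosomal members range from 0.04 to 0.22 with saline and from -0.18 to -0.04 with metformin, and the proximal tubule markers are spread more widely.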

How the data were processed

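The authors deposited log2 expression values per transcript cluster from 6 single-colour arrays of biotin-labelled kidney RNA, and the submitters' processing notes name RMA and Transcriptome Analysis Console 4.0. Their settings are not stated in what was used here, and the deposited log2 values reach 19.9, so changes hold on the deposited scale. The platform annotation gave 30604 clusters 1 symbol, of which 22951 were matched to RefSeq by Entrez number. The 33.3% of clusters with the lowest means (at or under 4.03) were left out, and the highest cluster per symbol was kept. Metformin was compared with saline over 22085 genes by limma 3.58.1 under R 4.3.3 (linear model, eBayes, two-sided, Benjamini-Hochberg adjusted p under 0.05), and the fit was tested on simulated data.

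The members and lists were chosen with earlier results of these data known. Genes were named by rule: members past the threshold, the 5 most negative and most positive changes, and pathway genes past the threshold or with the smallest p of their list; the others named (among them the stalk, S18 and near-threshold genes and neighbours) were chosen after their values were seen. Classes follow the published names of the mitoribosome proteins. The labels number the mice 1 to 3 in each group and call them biological replicates. They name no pairs. Deviations of equal numbers from the group means correlated at 0.118, 0.145 and 0.541 across genes. Those of unequal numbers ran from -0.465 to 0.299, the latter for saline 2 with metformin 1. These values do not settle whether equal numbers are pairs, and the replicate block was used in an alternative fit only. Alternatives were scaling, filter, clusters per gene, variance model, array weights, marker scores and leaving out each array.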

Additional observations from a re-analysis of the deposited data

How the results depend on the processing

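The direction of the median over the members was below 0 under every alternative run, and no member was called higher in any. The count of 13 that fell was 13 to 18 with median-centring, both other filters, trend and robust options, array weights and the replicate block. The mean over clusters could not change a member's value, since each has 1 cluster. Under the replicate block it was 13, of which 11 were shared with the fit without it, as Mrpl10 and Mrpl35 lost their call and Mrpl2 and Mrpl47 gained it. With quantile normalization 29 members were lower and the median was -0.36 (pathway genes: 38 lower in place of 17). The genes called lower among all tested rose from 2006 to 3806, and the median of all genes moved from 0.02 to -0.10. Relative to all genes the members' median was -0.23 as deposited and -0.27 after quantile normalization. It was -0.17 without saline array 1, -0.18 without metformin array 1 and -0.09 with the proximal tubule value as a covariate. Over all alternatives it ran from -0.27 to -0.09. The share of lower genes among all called was 57.5% on the deposited scale, 74.8% with median-centring and 79.3% with quantiles made equal. Mrpl33 and Mrps18a turned from above 0 to -0.031 and -0.028 there, neither called. With the adipocyte value as a covariate 2 members and 6 pathway genes were lower, and with the proximal tubule value 0 and 0, with a members' median of -0.12. The cause of these moves was not tested. Leaving out 1 array gave 3 to 14 members lower, 6 to 21 pathway genes lower, and a members' median from -0.27 to -0.16. The number of arrays, 3 per group, limits the precision.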

Other observations

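After the promoter windows were printed, the core letters of the site of the zinc finger factor ZNF143 were seen in several of them and counted, so their choice follows the data. They lie in 4 of 65 windows (6.15%, beside 1.6% of protein-coding genes of the table): those of Mrpl50, Mrpl34, Mrpl42 and Mrpl24. These 4 genes hold the most negative change (Mrpl50, -1.12), the gene with the smallest adjusted p (Mrpl34, -0.96), a gene with a change of -0.01 (Mrpl42) and the most positive change of the family (Mrpl24, 0.25).

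The clusters that join a family symbol with another gene were not tested as members. The cluster of Mrpl30 and Gm6238 read 7.62, 7.30 and 7.29 in saline mice 1 to 3 and 7.16, 7.29 and 7.02 in metformin mice 1 to 3. That of Ccdc142 and Mrpl53 read 6.07, 6.06 and 5.95 against 6.12, 6.26 and 6.01, and that of Slc5a3 and Mrps6 read 13.47, 13.67 and 13.80 against 12.99, 13.81 and 13.46. The further cluster of Mrps18b, joined with Gm16279, read 5.61, 5.37 and 5.33 against 5.49, 5.47 and 5.42. In the cluster of Mrpl30 and Gm6238 the metformin arrays all lay below the saline arrays, by less than the digits shown. In the other clusters the groups overlapped.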
